A study of Mus musculus with 10 samples.

Results

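The genes examined were the opioid receptor genes Oprm1, Oprd1, Oprk1 and Oprl1 and the opioid precursor genes Pdyn and Pnoc. A gene was included when the platform annotation assigned a probe set to its symbol alone, and the brightest such probe set was kept. All 6 genes had 1 probe set each, so 6 of the 28944 probe sets tested and 6 of the 19938 genes with a value are described. RNA came from whole brains of 5 transgenic mice (Tg) that overexpressed Glo1 from a bacterial artificial chromosome, and of 5 littermates without the transgene (wild type, WT). Both groups were adult males on a C57Bl/6J background that received no treatment, and each brain was measured on its own Affymetrix array. The labels call the samples of a group biological replicates. They name no promoter, line or copy number of the transgene, and give the age as adult.

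Opioid receptors are G protein-coupled receptors that act through inhibitory G proteins. They lower cyclic AMP, open inwardly rectifying potassium channels and close presynaptic calcium channels, so that neurons fire and release transmitter less. Oprm1 encodes the mu receptor, the main target of morphine, Oprd1 the delta receptor and Oprk1 the kappa receptor. Oprl1 encodes the nociceptin receptor, which shares the family's structure but binds the classical opioids poorly. Pdyn encodes prodynorphin, from which dynorphins, the ligands of the kappa receptor, are cut. Pnoc encodes prepronociceptin, the precursor of nociceptin, the ligand of the Oprl1 receptor. Kappa receptor signalling by dynorphin is known for aversive states, and nociceptin for effects on stress and anxiety-like behaviour.

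Genotype labels and tissue were checked first. Glo1, the gene of the transgene, read 11.88 to 12.23 log2 units on the Tg arrays, against 10.27 to 10.75 on the WT arrays. Its Tg over WT ratio was 2.85 (2.47 to 3.27, 95% interval; limma adjusted p = 3.5e-05), and the groups did not overlap. Markers of neurons, the labelled tissue's defining cells, were bright on every array, with a list mean of 12.1 to 12.17 log2 units in Tg and 12.09 to 12.17 in WT. A pair of arrays stood apart. The mean of 9 pituitary markers was 8.98 log2 units on Tg replicate 2, against 6.93 to 7.07 on the other Tg arrays, and 9.33 on WT replicate 2, against 6.79 to 6.97 on the other WT arrays. On WT replicate 2, moreover, the mean of 16 cerebellar markers was 8.43 log2 units, against 10.53 to 10.63 on the other 4 WT arrays and 10.36 to 10.48 on the Tg arrays. The genotype differences are given with and without each of these arrays.

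Sequence upstream of the start site was available from RefSeq (assembly GRCm38.p6) for 4 of the 6 genes, Oprm1, Oprd1, Oprl1 and Pdyn. Oprk1 and Pnoc had no entry. The 250 bases before the outermost annotated start are shown so that the upstream sequence of the receptor genes can be set beside their values. The windows are chr4:132144487-132144736 (minus strand) for Oprd1, chr10:6758343-6758592 (plus strand) for Oprm1, chr2:181714766-181715015 (plus strand) for Oprl1 and chr2:129699939-129700188 (minus strand) for Pdyn. The table lists 3 start windows each for Oprm1 and Oprl1, 2 for Pdyn and 1 for Oprd1. Capitals mark motifs found by an exact search on both strands for the E-box CACGTG, the cyclic AMP response element core TGACG, the GC box GGGCGG, the CCAAT box CCAAT and the TATA box TATAAA.
Oprd1: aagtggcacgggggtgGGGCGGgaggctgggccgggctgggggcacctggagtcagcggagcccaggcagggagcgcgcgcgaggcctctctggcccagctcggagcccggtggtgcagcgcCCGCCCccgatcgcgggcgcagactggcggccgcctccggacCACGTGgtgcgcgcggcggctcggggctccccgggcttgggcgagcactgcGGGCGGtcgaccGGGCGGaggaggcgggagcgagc
Oprm1: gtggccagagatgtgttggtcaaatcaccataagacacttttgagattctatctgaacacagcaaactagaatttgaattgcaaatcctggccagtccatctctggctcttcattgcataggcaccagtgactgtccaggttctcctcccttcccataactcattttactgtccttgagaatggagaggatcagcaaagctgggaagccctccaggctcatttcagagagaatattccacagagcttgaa
Oprl1: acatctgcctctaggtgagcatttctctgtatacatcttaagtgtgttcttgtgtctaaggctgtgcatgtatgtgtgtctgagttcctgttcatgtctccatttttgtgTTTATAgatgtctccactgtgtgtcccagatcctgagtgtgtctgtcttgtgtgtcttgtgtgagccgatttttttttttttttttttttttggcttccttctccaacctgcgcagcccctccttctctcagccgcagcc
Pdyn: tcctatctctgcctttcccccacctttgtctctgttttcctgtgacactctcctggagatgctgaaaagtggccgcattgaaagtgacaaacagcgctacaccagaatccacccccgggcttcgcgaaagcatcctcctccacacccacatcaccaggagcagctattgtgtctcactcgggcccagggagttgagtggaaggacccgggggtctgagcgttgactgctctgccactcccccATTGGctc
The Oprd1 window was 80.0% G or C, higher than 98.8% of the 27018 windows, and held 34 CpG dinucleotides, 4 GC boxes and 1 E-box. The Oprm1 window was 45.6% G or C with 0 CpG dinucleotides, and none of the 5 motifs was found in it. The Oprl1 window was 44.4% G or C and matched the TATA box once, on the opposite strand, at positions -140 to -135 from the start. The Pdyn window was 57.2% G or C and held 1 CCAAT box on the opposite strand, at positions -8 to -4. The motifs found did not overlap. Over all windows, the E-box occurred in 6.04%, the response element core in 17.8%, the GC box in 33.0%, the CCAAT box in 34.5% and the TATA box in 13.0%. These matches describe letters only, and the arrays did not measure binding at them.

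The first question was how bright each gene was in whole brain. Oprl1 was brightest, with a mean of 9.24 ± 0.09 log2 units over the 10 arrays (SD), followed by Oprd1 at 8.83 ± 0.09 and Pnoc at 8.2 ± 0.11. Oprk1 at 7.85 ± 0.11, Oprm1 at 7.84 ± 0.08 and Pdyn at 7.77 ± 0.09 came last. All 6 are means of log2 expression values. Among 19938 genes, Oprl1 lay at the 68.5th percentile, Oprd1 at the 60.5th and Pnoc at the 49.0th. Oprk1, Oprm1 and Pdyn lay between percentiles 41.9 and 43.2. Brightness also depends on the probes of each set, so this is an order of array signal and not of transcript number.

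The upper part of the order was the same on all 10 arrays, Oprl1 before Oprd1 before Pnoc. Their ranges over arrays did not overlap. Oprl1 exceeded Oprd1 by 0.41 log2 units on average (0.29 to 0.51), Oprd1 exceeded Pnoc by 0.64 (0.55 to 0.69), and Pnoc exceeded Oprk1 by 0.35 (0.05 to 0.6). The lower part had no fixed order. Oprk1 was above Oprm1 on 5 of 10 arrays, with a mean gap of 0.01 ± 0.14, and Oprm1 was above Pdyn on 7 of 10, with a mean gap of 0.07 ± 0.12 (SD). Oprk1, Oprm1 and Pdyn thus did not differ in brightness beyond their spread.

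A list of genes of other organs, such as the liver, kidney and testis, served as a gauge of dim probe sets. Its 22 measured genes had means from 4.45 to 8.27 log2 units, with a median of 6.8, and the highest was the apolipoprotein gene Apoa2. The means of Oprl1 and Oprd1 lay above all 22, and those of the other 4 genes above 21 of 22. Pdyn exceeded the gauge's median by 0.97 log2 units, Oprm1 by 1.04 and Oprk1 by 1.05, against 2.45 for Oprl1. The enkephalin precursor Penk, whose peptides act mainly on the delta and mu receptors, read 12.6 ± 0.05 log2 units, at the 99.4th percentile of genes. The endorphin precursor Pomc read 7.33 ± 0.42, at the 34.0th.

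**Figure D1:**
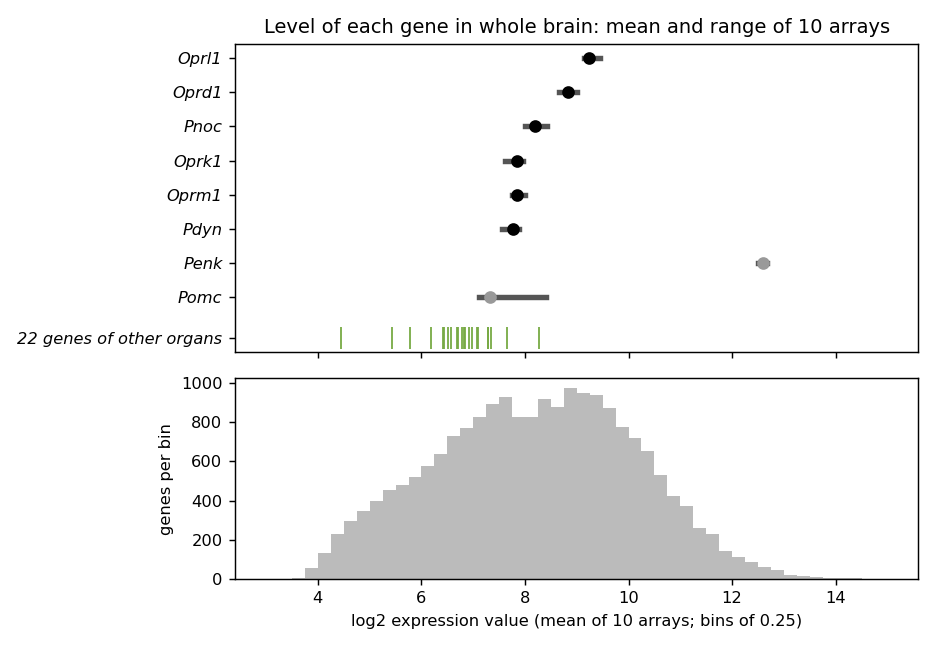
The upper panel shows the mean (point) and the range (bar) of the log2 expression value over 10 arrays for each gene, with the means of 22 genes of other organs as ticks in the bottom row. The lower panel counts genes per bin of the same scale over all 19938 genes. The 6 opioid genes lie between 7.77 and 9.24, in the middle of the distribution, and Penk lies far to the right at 12.6.

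The main comparison asked whether receptor or precursor transcripts differed between Tg and WT brain. None of the 6 genes passed the limma test at an adjusted p under 0.05, where 0.0345% of all probe sets passed. At an unadjusted p under 0.05 the count was also 0 of 6, where 2.21% of all probe sets fell. Tg over WT ratios ranged from 0.941 for Oprk1 to 1.03 for Oprd1, and the 95% confidence intervals of the 6 ratios together spanned 0.85 to 1.13. The difference was above 0 in 3 of 6 genes, where 47.8% of all probe sets lay above 0. In all 6 genes the ranges of the 2 groups overlapped, where 0.46% of all probe sets showed no overlap. The limma adjusted p was 1.0 for each of the 6 genes, so the fit gives intervals but no call.

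Among the receptors, Oprm1 read 7.83, 7.86, 7.81, 7.82 and 7.89 log2 units on Tg arrays 1 to 5, against 7.8, 8.0, 7.74, 7.75 and 7.84 on WT arrays 1 to 5. The Tg values lay close together, and the WT values spread on either side of them, with replicate 2 highest. The difference was 0.02 log2 units (95% interval -0.10 to 0.13, two-sided exact permutation p = 0.794, n = 5 each).

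The delta receptor gene Oprd1 read 8.79, 8.83, 8.83, 8.95 and 8.86 on the Tg arrays, against 8.8, 9.01, 8.8, 8.66 and 8.81 on the WT arrays. WT held both the highest and the lowest value. Its difference was 0.04 (-0.09 to 0.17, exact permutation p = 0.516).

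The kappa receptor gene Oprk1 read 7.94, 7.61, 7.77, 7.91 and 7.79 on the Tg arrays, against 7.84, 7.97, 7.92, 7.94 and 7.77 on the WT arrays. Tg replicate 2 was lowest, and 3 of the 5 Tg values lay below the WT mean. Oprk1 differed by -0.09 (-0.23 to 0.06, exact permutation p = 0.222), the largest difference in size among the 6 genes.

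The nociceptin receptor gene Oprl1 read 9.3, 9.27, 9.19, 9.24 and 9.16 on the Tg arrays, against 9.27, 9.44, 9.26, 9.13 and 9.18 on the WT arrays. The groups covered nearly the same range apart from WT replicate 2. The difference was -0.02 (-0.15 to 0.11, exact permutation p = 0.746).

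Among the precursors, Pdyn read 7.86, 7.73, 7.55, 7.75 and 7.79 on the Tg arrays, against 7.72, 7.79, 7.88, 7.77 and 7.83 on the WT arrays. Tg replicate 3 was the lowest of all, and 1 of 5 Tg values lay above the WT mean. Pdyn differed by -0.06 (-0.19 to 0.07, exact permutation p = 0.357).

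Pnoc, the nociceptin precursor, read 8.16, 8.2, 8.16, 8.26 and 8.22 on the Tg arrays, against 8.16, 8.43, 8.13, 8.0 and 8.25 on the WT arrays. The Tg values fell inside the WT range. Pnoc differed by 0.01 (-0.15 to 0.16, exact permutation p = 0.889). In bulk tissue, fewer cells of a type and less RNA per cell cannot be told apart, and the regions of the brain are averaged in each value.

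**Figure D2:**
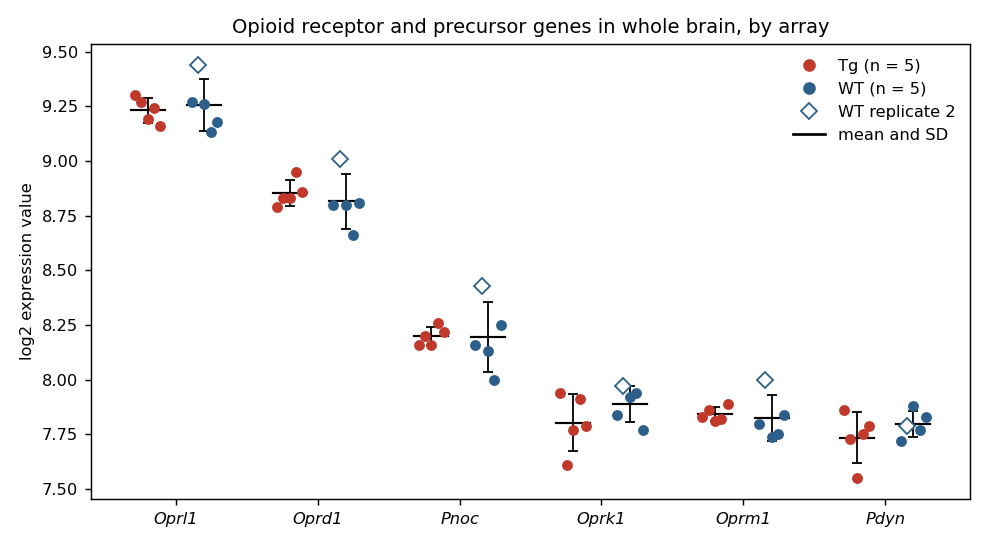
Each point is the log2 expression value of a gene on one array, Tg left and WT right within each gene, with the group mean and SD in black and WT replicate 2 as an open diamond. The groups overlap in all 6 genes, and the diamond is the highest point of 5 of them, the exception being Pdyn.

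WT replicate 2 held the highest of the 10 values for 5 of the 6 genes, Oprm1, Oprd1, Oprk1, Oprl1 and Pnoc. That array was the highest for 37.3% of all 19938 genes, and for 35% of the 5297 genes within the 6 genes' range of mean level. Compared with the mean of the other 4 WT arrays, it was higher by 0.3 log2 units for Pnoc, 0.24 for Oprd1, 0.23 for Oprl1, 0.22 for Oprm1 and 0.1 for Oprk1. Pdyn lay 0.01 below that mean. The median of this gap was 0.23 over the 6 genes, 0.08 over all genes and 0.04 over genes within the same range of level.

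Some marker lists of brain regions moved on the same array. The mean of 14 hypothalamic markers was 8.27 on WT replicate 2, against 7.86 to 8.0 on the other WT arrays and 7.96 to 8.05 on Tg arrays, and 12 of the 14 were highest there. The mean of 12 striatal markers was 10.32, against 10.1 to 10.12 on the other WT arrays and 10.05 to 10.09 on Tg arrays, with 9 of 12 highest. Of the 16 cerebellar markers 15 were lowest on WT replicate 2, where 3251 of all 19938 genes were lowest. Among the 15 was Gabra6, a GABA-A receptor subunit of granule cells, at 6.03 against 10.84 to 11.29 on the other 9 arrays. The means of the other brain region lists did not all move. They lay within those of the other WT arrays for cortex and hippocampus (9.73, against 9.71 to 9.75), thalamus and habenula (8.99, against 8.97 to 9.01) and olfactory bulb (8.21, against 8.12 to 8.38). Single genes of these lists did depart. In each list 3 genes were lowest on WT replicate 2, and 5, 4 and 0 were highest, in that order. Etv1 had the largest gap in the first list, at 10.81 against 11.42 to 11.58 on the other 9 arrays. In the second Calb2 read 10.59, against 11.23 to 11.51, and in the third Eomes read 6.79, against 7.38 to 8.33. The mean of 10 hindbrain and midbrain markers was 8.08, against 7.84 to 7.98 on the other WT arrays and 7.94 to 8.04 on Tg arrays. The mean of the 22 genes of other organs was 6.91 on WT replicate 2, against 6.57 to 6.68 on the other WT arrays and 6.68 to 6.79 on Tg arrays. Of these 22 genes 17 were highest there. The mean of 7 vessel, microglia and blood genes was 9.38, against 9.05 to 9.1 on the other WT arrays, with 3 of 7 highest. Alas2 had by far the largest gap of these 7, at 9.66 against 7.93 to 8.25 on the other 9 arrays. The rise of this mean therefore does not describe the vessel and microglia genes of the list alike. The part of these in the opioid values of that array was not tested.

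Without WT replicate 2, again 0 of 6 genes passed the limma test, where 0.038% of all probe sets passed, and 0 of 6 had an unadjusted p under 0.05, where 11.0% of all probe sets did. The difference was above 0 in 4 of 6 genes, where 54.2% of all probe sets lay above 0. The lowest adjusted p was 0.498, for Oprd1. Oprd1 then differed by 0.09 log2 units (-0.01 to 0.19, exact permutation p = 0.0635, n = 5 and 4), and all 5 Tg values lay above the WT mean. Pnoc differed by 0.07 (-0.05 to 0.18, exact permutation p = 0.222) and Oprm1 by 0.06 (-0.02 to 0.14, exact permutation p = 0.0952), each with 5 of 5 Tg values above the WT mean. For comparison, 15.2% of all genes had every Tg value above the mean of these 4 WT arrays. In the same fit, 21 of the 22 genes of other organs also had a difference above 0, with a median of 0.09 log2 units, and 5 of them had an unadjusted p under 0.05. Of the 16 cerebellar markers 1 had a difference above 0, with a median of -0.189, and 11 had an unadjusted p under 0.05. Of the 14 olfactory bulb markers 11 had a difference above 0, with a median of 0.243, and 3 had an unadjusted p under 0.05. With all arrays 13 of these 14 lay above 0, with a median of 0.222. The part of any of these shifts in the differences of Oprd1, Pnoc and Oprm1 was not tested.

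Oprl1 changed sign without that array, to 0.02 (-0.08 to 0.12, exact permutation p = 0.571). Oprk1 differed by -0.07 (-0.22 to 0.09) and Pdyn by -0.07 (-0.2 to 0.07), close to their values with all arrays. The group ranges still overlapped in all 6 genes, where 3.1% of probe sets showed no overlap. The pooled within-group SD fell to 0.0411 log2 units for Oprm1 without WT replicate 2, against 0.0797 with it, and to 0.0769 for Pnoc, against 0.118. For Oprk1 it was 0.114 without and 0.111 with that array. Without Tg replicate 2, the other array with high pituitary values, again 0 of 6 genes passed, and limma gave an adjusted p of 1.0 for each. The differences were then 0.01 for Oprm1, 0.05 for Oprd1, -0.04 for Oprk1, -0.03 for Oprl1, -0.06 for Pdyn and 0.01 for Pnoc. For Oprk1 this compares with -0.09 with all arrays, and its lowest value fell on Tg replicate 2. The smallest p that the exact test allows is 0.00794 with all arrays and 0.0159 without WT replicate 2.

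**Figure D3:**
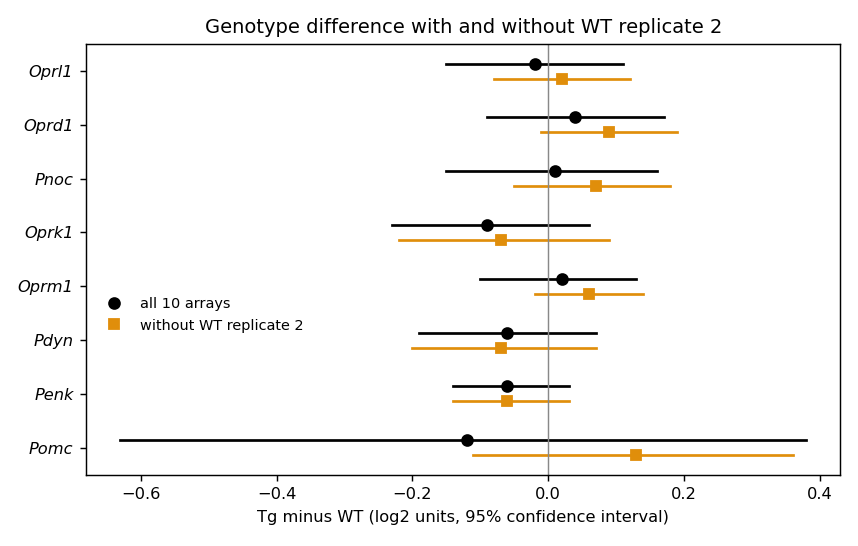
Tg minus WT difference in log2 units with its 95% confidence interval from limma, with all 10 arrays (black circles) and without WT replicate 2 (orange squares). Every interval includes 0. The orange points of Oprl1, Oprd1, Pnoc and Oprm1 lie to the right of the black ones, and Pomc has the widest intervals.

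Each precursor was then set against the receptor of its peptide within the same array, which removes differences in overall brightness between arrays. Pdyn minus Oprk1 averaged -0.07 ± 0.14 log2 units in Tg and -0.09 ± 0.1 in WT (SD, n = 5 each), and the groups differed by 0.024 (exact permutation p = 0.738). Pnoc minus Oprl1 averaged -1.03 ± 0.08 in Tg and -1.06 ± 0.09 in WT, a difference of 0.032 (exact permutation p = 0.563). Without WT replicate 2 the differences were 0.001 and 0.045. For neither ligand and receptor pair did the balance differ between genotypes beyond the spread of the arrays.

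Next, the 15 pairs of the 6 genes were compared across the 10 arrays. Oprd1 and Pnoc had a Pearson r of 0.93 (permutation p = 0.00057, adjusted over 15 pairs 0.00855) and a Spearman rho of 0.81 (permutation p = 0.00698, adjusted 0.0523). Oprm1 and Pnoc had an r of 0.87 (permutation p = 0.00242, adjusted 0.0181) and a rho of 0.83 (permutation p = 0.00506, adjusted 0.0523). These 2 pairs passed by r and 0 pairs passed by rho. Without WT replicate 2, r was 0.87 for Oprd1 with Pnoc and 0.7 for Oprm1 with Pnoc. Without the 2 arrays farthest from the median of the first gene, it was 0.68 and 0.74.

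Oprm1 and Oprd1 had an r of 0.75 (permutation p = 0.0154, adjusted 0.0771) and a rho of 0.64 (permutation p = 0.0564, adjusted 0.282), and 0.52 without WT replicate 2. The correlation of Oprl1 with Pnoc, at r = 0.69 (permutation p = 0.0418, adjusted 0.152) and rho = 0.25 (permutation p = 0.493, adjusted 0.947), rested on single arrays. It was 0.27 without WT replicate 2 and -0.48 without WT replicates 2 and 4. The ligand and receptor pair Pdyn and Oprk1 had an r of 0.4 (permutation p = 0.247, adjusted 0.528) and a rho of 0.43 (permutation p = 0.218, adjusted 0.818), and r was 0.1 without Tg replicates 2 and 3.

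Oprm1, Oprd1 and Pnoc also moved with the genes of other organs, in a comparison chosen after the values were seen. Over 10 arrays, the mean of the 22 gauge genes had an r of 0.95 with Oprm1 (permutation p = 0.00031, adjusted over 6 genes 0.00186) and a rho of 0.77 (permutation p = 0.0123, adjusted 0.0343). For Pnoc r was 0.86 (permutation p = 0.00282, adjusted 0.00776) and rho 0.75 (permutation p = 0.0171, adjusted 0.0343). For Oprd1 r was 0.85 (permutation p = 0.00388, adjusted 0.00776) and rho 0.84 (permutation p = 0.00374, adjusted 0.0224). Without WT replicate 2 these r values were 0.88, 0.7 and 0.73. Without WT replicates 2 and 3, the arrays farthest from the gauge's median, they were 0.81, 0.75 and 0.85.

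The same relation was near 0 for Oprk1, with an r of 0.0 (permutation p = 0.992, adjusted 0.992) and a rho of -0.1 (permutation p = 0.786, adjusted 0.786). For Pdyn r was -0.15 (permutation p = 0.654, adjusted 0.785) and rho -0.37 (permutation p = 0.294, adjusted 0.44). For Oprl1 r was 0.58 (permutation p = 0.0842, adjusted 0.126) and rho 0.26 (permutation p = 0.467, adjusted 0.56), and r was 0.01 without WT replicate 2. Among 5290 other genes of like level the median r with the gauge was 0.07. Oprm1 lay at the 99.6th percentile of them, Pnoc at the 94.6th and Oprd1 at the 94.0th. Without WT replicate 2 the median r of these other genes was -0.14. The percentiles were then 98.1 for Oprm1, 91.1 for Pnoc and 92.1 for Oprd1. The part of these dim genes' shared variation in the opioid values was not tested. The gap of WT replicate 2 from the mean of the other WT arrays was 0.28 log2 units for the gauge. This gap was 0.22 to 0.3 for Oprm1, Oprd1, Oprl1 and Pnoc, but 0.1 for Oprk1 and -0.01 for Pdyn.

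**Figure D4:**
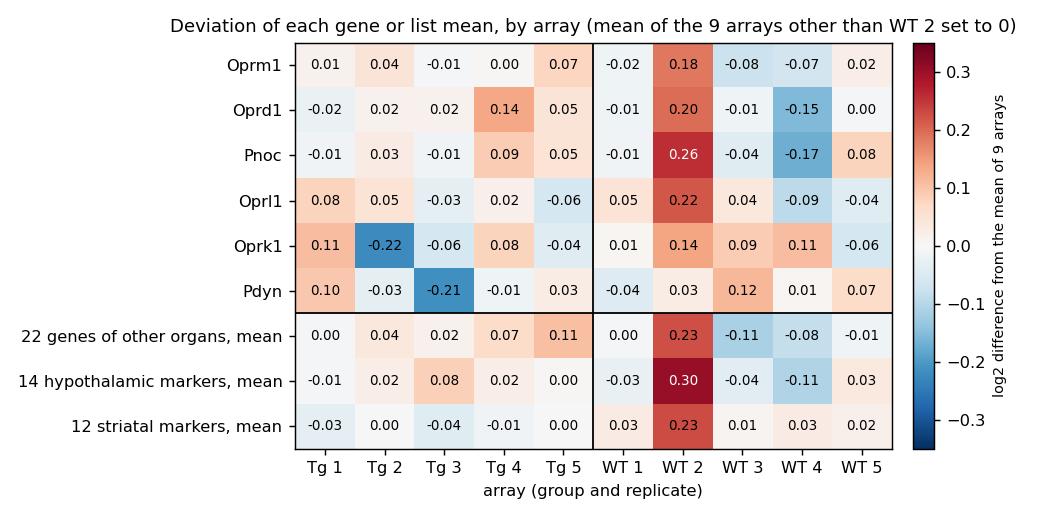
Each cell gives the log2 value of a gene (rows above the line) or of a list mean (rows below) minus its mean over the 9 arrays other than WT replicate 2, with Tg arrays left and WT arrays right. WT replicate 2 is high for Oprm1, Oprd1, Pnoc, Oprl1 and the 3 lists and near 0 for Pdyn, and the low cells of Oprk1 and Pdyn fall on Tg replicates 2 and 3.

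The genes whose values were most like those of each opioid gene across the 10 arrays were sought among the 11963 genes in the upper part of the level distribution by Pearson r. They were picked as the highest of all these correlations and are given without a test. Oprm1 was most like Fam170b and Sh2d6, both with an r of 0.97, and 0.96 and 0.93 without WT replicate 2. Oprd1 was most like Ccdc153 (0.97) and the cytokine receptor gene Crlf2 (0.96).

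Pnoc was most like Wdtc1 (0.97) and Map1s (0.96), a microtubule-associated protein gene. Oprl1 was most like Pdpn (0.97), which encodes podoplanin, and Kcnab2 (0.94), a potassium channel beta subunit. Oprk1 was most like the protocadherin gene Pcdh7 and Rnf7, a ring finger protein gene, both with an r of 0.93. Pdyn was most like Mok (0.92) and Setd3 (0.87). For none of the 6 genes was another of the opioid genes searched among its nearest 2. Pomc, at the 34.0th percentile of level, was too dim to be searched. With so few opioid genes among 11963, this absence was likely beforehand and says little about the family.

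The other opioid precursors were set beside these genes. Penk read 12.6, 12.51, 12.6, 12.63 and 12.54 log2 units on the Tg arrays, against 12.61, 12.63, 12.63, 12.67 and 12.61 on the WT arrays. All 5 Tg values lay below the WT mean, while the ranges overlapped. Penk differed by -0.06 (95% interval -0.14 to 0.03, exact permutation p = 0.0476, not adjusted for the number of genes, limma adjusted p = 1.0), and by the same -0.06 without WT replicate 2 (exact permutation p = 0.0794, adjusted p = 0.571).

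Pomc read 7.13, 7.68, 7.31, 7.13 and 7.11 on the Tg arrays, against 7.12, 8.4, 7.12, 7.2 and 7.14 on the WT arrays. WT replicate 2 and Tg replicate 2 were the highest of their groups. The pituitary hormone genes were high on the same arrays: Prl, prolactin, read 12.09 on Tg replicate 2 and 12.48 on WT replicate 2, and Gh, growth hormone, 13.14 and 13.46. On the other 8 arrays Prl read at most 6.62 and Gh at most 8.25. Pomc is also a pituitary gene, and the part of adjoining tissue in its values was not tested. It differed by -0.12 (-0.63 to 0.38), and by 0.13 (-0.11 to 0.36) without WT replicate 2.

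Genes that make, degrade or transduce opioid signals were counted by list. None of 57 measured genes in 4 lists passed the limma test, with all arrays or without WT replicate 2, and 1 of them had an unadjusted p under 0.05 in either fit, where 2.21% of all probe sets did with all arrays and 11.0% without WT replicate 2. Of 9 precursor processing genes, which include the convertase Pcsk1 and carboxypeptidase E (Cpe), 0 passed, and the median difference was 0.005 log2 units. The lowest p belonged to Pcsk1n, a convertase inhibitor gene, at 12 ± 0.27 in Tg and 12.15 ± 0.23 in WT, a difference of -0.15 (-0.45 to 0.15). Of 10 genes for peptidases that break down opioid peptides, among them neprilysin (Mme) at -0.0 (-0.12 to 0.11), 0 passed, with a median of -0.015. Nln, neurolysin, had the lowest p there, at 8.95 ± 0.13 in Tg and 9.06 ± 0.12 in WT, a difference of -0.12 (-0.28 to 0.04). The largest difference in size belonged to Ide, insulin-degrading enzyme, at 0.24 (-0.1 to 0.58) with all arrays and 0.15 without WT replicate 2, and it did not pass either.

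The G proteins, channels and cyclases that carry the receptor signal were counted next. Of 22 measured genes 0 passed, with a median of -0.008. Gnao1, the most abundant inhibitory G protein alpha subunit of brain, differed by 0.01 (-0.08 to 0.09). The potassium channel genes Kcnj3, Kcnj6 and Kcnj9 differed by 0.04, -0.01 and -0.08. Kcnj5, of the same channel family, had the lowest p of the list, at 7.07 ± 0.13 in Tg and 6.94 ± 0.16 in WT, a difference of 0.13 (-0.04 to 0.31).

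Of 16 genes of receptor desensitisation and trafficking 0 passed, with a median of -0.005 and, without WT replicate 2, -0.034. Arrb2, the arrestin that binds activated mu receptors, differed by 0.01 (-0.16 to 0.17). Rgs9, which shortens G protein signals and is abundant in striatum, had the lowest p, at 10.03 ± 0.06 in Tg and 10.18 ± 0.13 in WT, a difference of -0.15 (-0.29 to -0.02, limma adjusted p = 1.0). Without WT replicate 2, where Rgs9 read 10.41, it differed by -0.09 (adjusted p = 0.435). Rgs9 is also one of the 12 striatal markers, and 0 of these 12 had a difference above 0 in either fit, with a median of -0.091, and -0.036 without WT replicate 2. Of all probe sets 47.8% lay above 0 with all arrays and 54.2% without WT replicate 2. Adcy5 and Ppp1r1b, counted above among the genes that carry the receptor signal, are striatal markers too. The striatal peptide genes Penk and Pdyn, with -0.06 each, had differences of the same sign, and the part of the striatal shift in them was not tested. Over all genes the median difference was -0.003, and 0.006 without that array. The median over the 6 opioid genes was -0.007, and 0.041 without it.

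**Figure D5:**
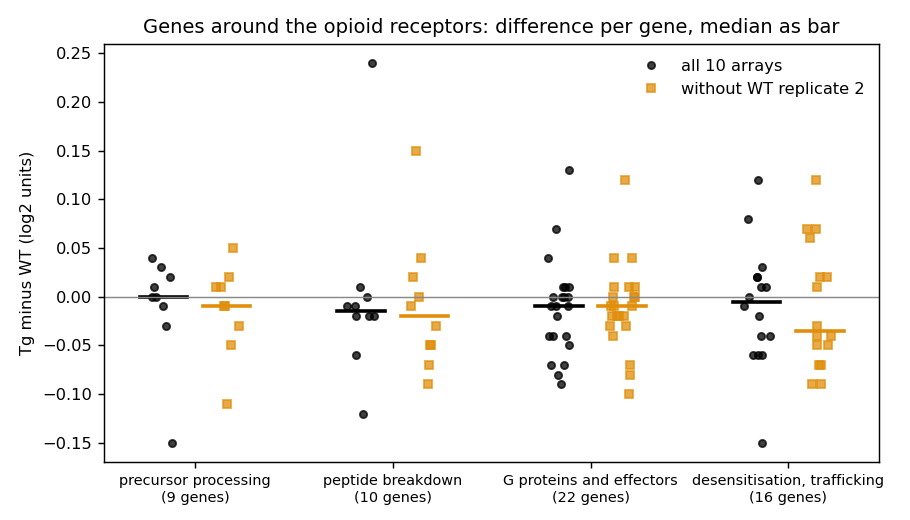
Each point is the Tg minus WT difference of one gene in log2 units, in 4 lists of genes around the opioid receptors, with all 10 arrays (black) and without WT replicate 2 (orange), and the bars mark medians. Most points lie close to 0, and the points farthest from it are Ide at 0.24 and Pcsk1n and Rgs9 at -0.15 with all arrays.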

How the data were processed

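Whole-brain RNA of 5 Tg and 5 WT mice was hybridised to 1 array each. Per the submitters' processing notes, the authors made the deposited values with Expression Console 1.1.2 (Affymetrix). The notes used here name no scale. The deposited values were taken as log2 from their range (3.28 to 14.7) and the like medians of the arrays (7.95 to 8.05), and every fold rests on this. Its options are, in the sources used here, not given. Values were used as deposited. Control rows (6612 of 35556) were left out, and 28944 probe sets were tested. The platform annotation gave 1 gene to 21789 probe sets, several to 1621 and none to 5534, and symbols were updated through Entrez identifiers (21698 matched). The assembly GRCm38.p6 was used for symbols and upstream sequence.

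Tg and WT were compared with limma 3.58.1 (R 4.3.3), with Benjamini-Hochberg adjustment over all probe sets and a threshold of 0.05, and with two-sided exact permutation tests over arrays. The fit was tested on simulated data. Alternatives were median centring, quantile and cyclic loess normalization, a filter on dim probe sets, array weights, a trended robust prior, a covariate for the labels' serial number, the replicate number as a block, and each array left out. Correlations used 100000 permutations. List genes with no probe set of their own here were not analysed.

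The members, lists and alternatives were chosen with earlier results of these data known. The text names the 6 members, Penk, Pomc and Glo1, the gene of lowest p of each pathway list and the 2 genes most like each member. Of some region and tissue lists, but not all, it names the gene with the largest gap on WT replicate 2 (Gabra6, Etv1, Calb2, Eomes, Alas2 and Prl). These lists, the other list genes named and Gh were chosen after their values were seen. Replicate numbers were not used to pair the samples in the main fit. Deviations of same-numbered arrays from their group means correlated from -0.472 to 0.453. Same-numbered arrays carried close serial numbers in their labels. These correlations cannot tell whether such arrays were handled as pairs, as each rests on a single pair. The number of arrays limits the precision.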

Additional observations from a re-analysis of the deposited data

Results flagged for a closer look

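Pomc on WT replicate 2 read 8.4 log2 units, and the next highest WT value was 7.2. The gap made up 0.938 of the range of the 5 WT arrays, above the 0.71 that marks an outlying value among 5. It was the 1 such value in 18 groups examined (the 6 members, Penk, Pomc and Glo1 in each genotype), and chance gives about 1 in 20. None of the 6 members had an outlying array in either group by this measure.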

How the results depend on the processing

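No member passed the threshold under any of the 18 alternatives run for each (0 of 6 in every one), and the lowest adjusted p was 0.498, for Oprd1 without WT replicate 2. Oprd1 kept a higher mean in Tg in all 18, and Oprk1 and Pdyn a lower one. With arrays left out in turn, the difference ranged from -0.0065 to 0.0598 for Oprm1, 0.0018 to 0.0883 for Oprd1, -0.1218 to -0.0376 for Oprk1, -0.0552 to 0.023 for Oprl1, -0.094 to -0.0163 for Pdyn and -0.0408 to 0.0681 for Pnoc, so 3 signs depended on single arrays (WT replicates 3 and 4 for Oprm1, WT replicate 2 for Oprl1, and Tg replicate 4 and WT replicates 1, 3 and 4 for Pnoc). Array weights turned Oprl1 to 0.0124 and Pomc to 0.0608, and leaving out WT replicate 2 turned Pomc to 0.1271; over arrays left out, Pomc ranged from -0.2275 to 0.1271 and Pdyn minus Oprk1 within an array from -0.023 to 0.063; without Tg replicate 2 the second turned to -0.023 (an alternative added after the data were seen). The causes were not tested. The replicate block gave the same differences as the fit without it, such as -0.0871 for Oprk1 (adjusted p = 0.999), and 11 probe sets past the threshold, against 10 without it; it changed no call of a member. Of the same-numbered pairs 2 of 5 correlated above 0.1, and 2 of 5 Tg arrays correlated best with the WT array of their own number. Pairing by replicate number thus remained undecided. Over all alternatives the count of probe sets past the threshold lay between 9 and 11. The order by level was the same without WT replicate 2 and after quantile normalization. Averaging the probe sets of a gene was not run, since each member has 1. Signal over background was not given per array, so how far dim values compress differences was not tested.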

Other observations

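The lowest Oprk1 value, 7.61 log2 units, fell on Tg replicate 2, where Oprm1, at 7.86, was above its Tg mean of 7.84. Without WT replicate 2 the correlation of Oprm1 with Oprk1 was -0.66 (rho -0.57), against -0.07 over all 10 arrays (rho -0.14), a pattern seen after the fact and described without a test. Pdyn, a gene of striatal projection neurons that carry the D1 dopamine receptor, did not follow the mean of the striatal list on WT replicate 2, and neither did other striatal peptide genes. There Pdyn read 7.79, inside the 7.55 to 7.88 of the other 9 arrays, while 9 of 12 striatal markers were at their highest. Tac1, the substance P precursor gene of the same neurons and a member of that list, read 10.29, the lowest of the 10 arrays. Drd1, the gene of that dopamine receptor and also on the list, went the other way. It read 9.76 there, against 9.31 to 9.47 on the other 9 arrays. Penk read 12.63 there, equal to the mean of the other 4 WT arrays.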
